A study of Mus musculus with 4 samples.

Results

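Immediate early genes are switched on within minutes of a stimulus, in neurons mostly by synaptic activity, from factors that are already in the cell. The set described here has 10 members, *Fos*, *Fosb*, *Junb*, *Egr1*, *Egr4*, *Npas4*, *Arc*, *Nr4a1*, *Nr4a3* and *Dusp1*. They were taken by symbol from the 32286 features of the deposited files, and all 10 were found. Nuclei of cortex and hippocampus were measured in 4 libraries, each of 1 mouse aged 5 weeks. The libraries carry the labels Sel1L flox/flox (2 mice, no Cre by the study's description) and Sel1L Syn-Cre (2 mice), and all 4 mice carry the floxed *Sel1L* allele. Cre is driven by the Synapsin I promoter, which is active in postmitotic neurons, on a C57BL/6J background. By the study's account only part of the neurons lost SEL1L protein. The loss covered a minority of cortical neurons and nearly all neurons of the hippocampal CA3 area and dentate gyrus, while SEL1L was largely kept in the CA1 area. No stimulus was given by the labels. Mice were killed by isoflurane and decapitation, and the brain was removed, sliced and dissected before the tissue was frozen. How long these steps took for each mouse is not given in the sources used here. The nuclei were sorted before loading. The question that the comparison answers is which genes of neurons and other brain cells differ between mice with and without neuronal SEL1L, the partner of the HRD1 ubiquitin ligase in degradation of proteins from the endoplasmic reticulum.

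The flox/flox libraries held 12599 and 8481 nuclei and the Syn-Cre libraries 8173 and 7366, with 74082610 to 122870443 UMIs (unique molecular identifiers, counted RNA molecules) per library. After filters on genes, mitochondrial UMIs and doublets, 33323 nuclei were kept, with medians of 7244.5, 7321.5, 7409 and 8397 UMIs. The order flox/flox 1, flox/flox 2, Syn-Cre 1, Syn-Cre 2 is used wherever 4 values are given. *Sel1l*, the targeted gene, was at 97.1, 90.04, 155 and 128 CPM over all nuclei (counts per 1e+06 UMIs of the summed nuclei), so it was higher and not lower in both libraries labelled Syn-Cre. Cre RNA had 409, 0, 236 and 221 UMIs, so flox/flox 1 held it too. The part of *Sel1l* that Cre removes is not given in the sources used here, and counts from outside it would not show its loss, so each direction below is that of the libraries labelled Syn-Cre against the libraries labelled flox/flox. Both replicates 1 had *Ddx3y* RNA and hardly any *Xist* and both replicates 2 the reverse, so each label has 1 male (replicate 1) and 1 female (replicate 2) mouse, and ratios within a replicate number compare mice of the same sex. Oligodendrocyte-like nuclei, 1848, 1173, 357 and 365, were separated by label. Library pairs shared 9 to 28 nucleus barcodes. With 2 mice per label there are 6 ways to assign the labels, so the smallest two-sided p of an exact permutation test is 0.3333.

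The members act at several levels of the early response. FOS, FOSB and JUNB are subunits of the AP-1 transcription factor, EGR1 and EGR4 are zinc-finger transcription factors, and NPAS4 is a basic helix-loop-helix factor made almost only in neurons after calcium entry. NR4A1 and NR4A3 are orphan nuclear receptors, ARC is a protein that binds at the synapse and takes part in the removal of AMPA receptors, and DUSP1 is a phosphatase that switches off MAP kinases. The genes are poised in resting neurons, and phosphorylated CREB, serum response factor and MEF2 start their transcription. RNAs of this kind are made and degraded fast, and in nuclei they also include RNA that is still being spliced or exported.

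All 10 genes were found in the GENCODE vM21 annotation (GRCm38). *Fos* (ENSMUSG00000021250) lies on chromosome 12 from 85473890 to 85477273, *Nr4a1* (ENSMUSG00000023034) on chromosome 15 from 101254269 to 101274795, *Nr4a3* (ENSMUSG00000028341) on chromosome 4 from 48045153 to 48086447, and *Junb* (ENSMUSG00000052837) on chromosome 8 from 84974484 to 84978718. *Junb* overlaps *Prdx2* on the other strand. The annotated locus of *Dusp1* (ENSMUSG00000024190), chromosome 17 from 26505590 to 26562128, overlaps *Ergic1* and *Gm8225* on the other strand and AC122252.4 and AC122252.1 on its own, so its counts are uncertain. Whether the counting used strand or introns is not given in the sources used here.

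Promoters were read from RefSeq (GRCm38.p6) for the 8 members that the table held, as the 250 bases before the start given there. This start need not be that of the GENCODE loci above. The windows of *Nr4a1*, *Npas4* and *Dusp1* lie inside the GENCODE loci of these genes, and those of *Nr4a3* and *Fosb* overlap theirs in part. The sequences are shown because CREB is a known activator of these genes and binds TGACG, the core of the cAMP response element, and the number of copies differs between the promoters. Capitals mark TGACG or its reverse complement CGTCA. The 6 printed belong to the 4 members with a call in a neuron subtype below (*Nr4a1*, *Nr4a3*, *Junb* and *Fos*) and to *Dusp1* and *Fosb*. These last were higher in both Syn-Cre libraries over all neurons, as were 29.0% of the 20434 genes counted.
Nr4a1 (chr15:101266596-101266845, plus strand): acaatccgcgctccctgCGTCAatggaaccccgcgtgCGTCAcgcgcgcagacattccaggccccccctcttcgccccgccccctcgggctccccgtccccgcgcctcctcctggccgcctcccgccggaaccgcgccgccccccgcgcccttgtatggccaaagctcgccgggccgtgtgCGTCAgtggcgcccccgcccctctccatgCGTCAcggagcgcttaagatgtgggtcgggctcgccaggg
Nr4a3 (chr4:48045055-48045304, plus strand): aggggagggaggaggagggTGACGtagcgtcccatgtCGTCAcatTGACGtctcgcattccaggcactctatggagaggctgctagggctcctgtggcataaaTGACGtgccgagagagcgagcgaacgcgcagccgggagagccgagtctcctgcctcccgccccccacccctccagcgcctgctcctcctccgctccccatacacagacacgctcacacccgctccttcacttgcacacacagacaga
Dusp1 (chr17:26508473-26508722, minus strand): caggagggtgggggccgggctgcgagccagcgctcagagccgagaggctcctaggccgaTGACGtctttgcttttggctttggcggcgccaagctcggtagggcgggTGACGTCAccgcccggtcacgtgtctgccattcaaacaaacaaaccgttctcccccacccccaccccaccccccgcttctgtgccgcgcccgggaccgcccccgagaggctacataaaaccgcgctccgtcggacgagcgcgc
Fosb (chr7:19310046-19310295, minus strand): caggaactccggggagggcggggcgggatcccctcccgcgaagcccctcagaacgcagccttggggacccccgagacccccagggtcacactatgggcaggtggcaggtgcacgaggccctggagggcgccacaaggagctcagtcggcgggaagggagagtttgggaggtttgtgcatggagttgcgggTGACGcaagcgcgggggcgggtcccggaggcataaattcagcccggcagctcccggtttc
Junb (chr8:84978749-84978998, minus strand): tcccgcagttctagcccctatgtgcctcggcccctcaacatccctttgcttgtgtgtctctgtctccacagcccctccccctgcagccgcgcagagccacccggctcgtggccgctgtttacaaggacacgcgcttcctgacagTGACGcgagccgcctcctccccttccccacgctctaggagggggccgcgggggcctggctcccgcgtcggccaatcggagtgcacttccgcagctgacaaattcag
Fos (chr12:85473640-85473889, plus strand): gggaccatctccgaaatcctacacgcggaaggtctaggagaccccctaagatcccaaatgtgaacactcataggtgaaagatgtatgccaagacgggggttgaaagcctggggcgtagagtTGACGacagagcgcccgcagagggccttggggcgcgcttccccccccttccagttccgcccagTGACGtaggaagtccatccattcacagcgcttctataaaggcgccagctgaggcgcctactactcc

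The core was present in 8 of 8 promoters, against 17.8% of the 32851 promoters in the table. It occurred 4 times in *Nr4a1* and in *Nr4a3*, a number that 0.137% of all promoters reach, and 3 times in *Dusp1*, where TGACGTCA, the full palindrome (1.55% of all promoters), holds overlapping matches. *Fos*, *Egr4* and *Npas4* had 2 each, which 3.9% of all promoters reach or pass, and *Fosb* and *Junb* had 1 each. In *Nr4a1* the matches start at -233, -213, -69 and -40 from the start, and in *Nr4a3* at -231, -213, -205 and -147. TGANTCA, the AP-1 site (6.75% of all promoters), and the CArG box of serum response factor (1.47%) were not found in these 8 windows, and both strands were searched. The genomic interval searched is short, and a match is a run of letters, not a bound site.

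Of the kept nuclei, 22209 were neuron-like (6793, 5207, 5065 and 5144), and 15632 of these were in clusters that could be named by marker genes. They comprised L2/3 IT-like (2894), L4/5 IT-like (2444), L5/6 IT-like (1156) and L6 CT-like (2031) cortical excitatory neurons, DG-like (2292), CA3-like (652) and CA1-like (1216) hippocampal neurons, and interneurons that were *Lamp5*-like (538), *Vip*-like (702), *Sst*-like (752) and *Pvalb*-like (955). IT stands for intratelencephalic, CT for corticothalamic and DG for dentate gyrus. The first marker of each list was highest in its own subtype, for example *Rorb* at 831 to 1250 CPM in L4/5 IT-like nuclei against at most 279 elsewhere and *Sst* at 203 to 364 CPM in *Sst*-like nuclei against at most 11.1. Without integration of the libraries, 59.3% of *Lamp5*-like nuclei kept their name, against 90.5% to 99.9% in the other subtypes. L5/6 IT-like neurons were named on 3 of 6 markers. At a clustering resolution of 0.6 that name fell on 291 nuclei, and 836 nuclei with *Deptor* among their leading genes had no name. The other 6577 neuron-like nuclei had no subtype name and entered only the comparison over all neurons.

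Most members had their highest levels in excitatory neurons of the deep and middle cortical layers. Averaged over the 4 libraries, *Fos* was highest in L4/5 IT-like neurons (27.2 ± 5.94 CPM, SD, n = 4), *Junb* in L6 CT-like (141 ± 34.2), *Egr1* in L6 CT-like (97.1 ± 25.3), *Npas4* in L6 CT-like (39.9 ± 12.8), *Arc* in L6 CT-like (86.3 ± 11.5), *Nr4a1* in L4/5 IT-like (114 ± 39.6) and *Dusp1* in L4/5 IT-like (20.4 ± 7.69). *Fosb* was at nearly the same mean in L5/6 IT-like (8.59 ± 6.69), L6 CT-like (8.55 ± 4.23) and L4/5 IT-like neurons (8.15 ± 5.67), and *Egr4* in CA1-like (19.7 ± 10.99) and L5/6 IT-like neurons (19.7 ± 8.71). The highest subtype was the same in the mean of each label for *Fos*, *Junb*, *Npas4*, *Arc*, *Nr4a1* and *Dusp1*. In the flox/flox libraries alone *Egr1* was highest in L4/5 IT-like (113.9) just before L6 CT-like (113.4), *Fosb* in L2/3 IT-like (5.58) and *Egr4* in L4/5 IT-like neurons (19.8), with CA1-like at 17.3 and L5/6 IT-like at 16.3. Granule cells of the dentate gyrus, which fire rarely, were lowest for *Fos* (0.987 ± 0.569), *Egr1* (9.92 ± 1.80), *Npas4* (2.49 ± 1.77), *Nr4a1* (6.59 ± 2.39), *Nr4a3* (5.64 ± 2.63) and *Dusp1* (2.15 ± 1.60). The levels are compared for 1 gene across subtypes, never between genes.

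**Figure D1:**
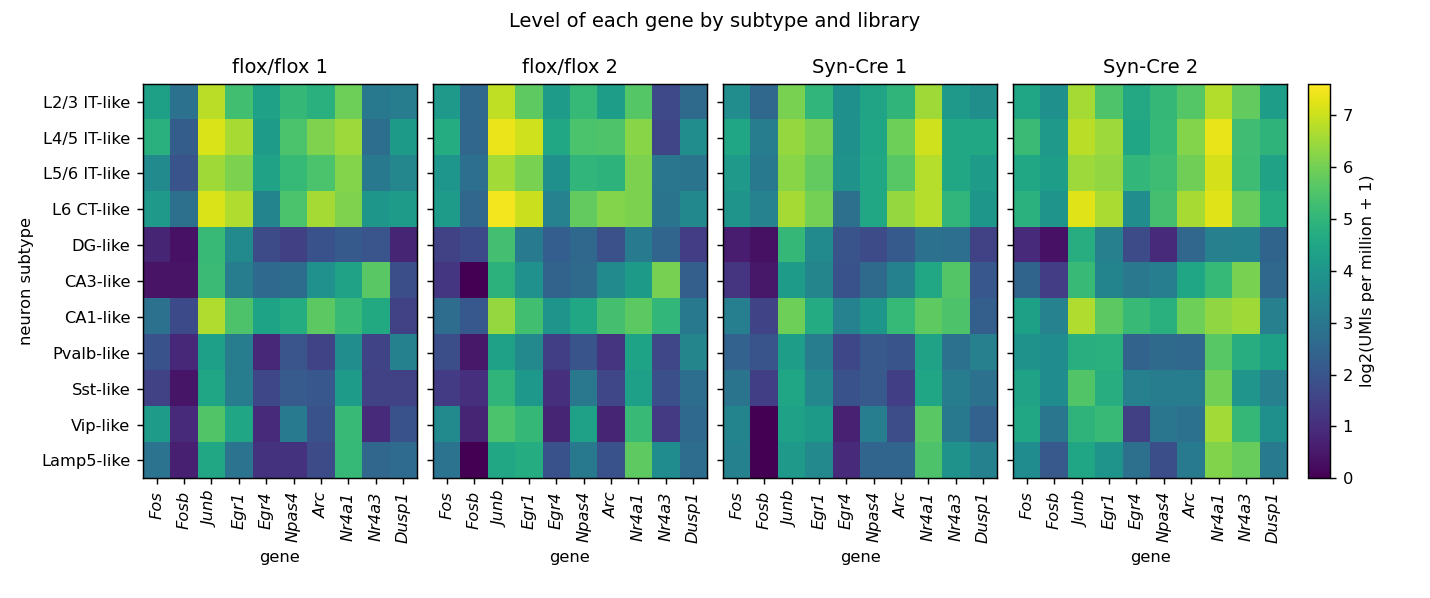
Level of the 10 genes (columns) in 11 neuron subtypes (rows), 1 panel per library, as log2(CPM + 1). Cortical excitatory rows are brightest and the DG-like row is darkest for most genes, while *Nr4a3* is brightest in the CA3-like row of both flox/flox panels.

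*Nr4a3* had another order. Its mean was highest in CA3-like neurons (56.6 ± 10.2 CPM), followed by CA1-like (47.3 ± 30.3), L6 CT-like (27.2 ± 21.5) and *Lamp5*-like neurons (21.6 ± 23.2), and it was 5.64 in DG-like neurons. CA3-like neurons came first in the flox/flox libraries (57.2 against 27.5 in CA1-like) and CA1-like neurons in the Syn-Cre libraries (67.2 against 56.1). CA3-like neurons were among the lowest for *Fos* (1.82 ± 1.82) and *Egr1* (10.3 ± 2.16). Over the 44 values of 11 subtypes and 4 libraries, log2(CPM + 1) of *Nr4a3* had a Pearson r of 0.462 with the mean of the standardised members, itself included, against 0.763 for *Dusp1* and 0.837 to 0.911 for *Fos*, *Egr4*, *Junb*, *Fosb*, *Npas4*, *Nr4a1*, *Arc* and *Egr1*. The 44 points share 4 mice and their library depths, so these values describe the set and were not tested.

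Few neighbours in the order of subtypes stood clear of each other. For *Junb* the lowest library of CA1-like neurons (86.8 ± 20.5 CPM) lay above the highest of *Vip*-like neurons (34.3 ± 12.1). The same held for *Egr1* between L5/6 IT-like (67.1 ± 11.3) and L2/3 IT-like neurons (41.5 ± 8.88), for *Egr4* between L2/3 IT-like (18.2 ± 4.27) and L6 CT-like (9.28 ± 2.55), for *Arc* between CA3-like (13.8 ± 5.39) and *Lamp5*-like (4.33 ± 2.39), and for *Nr4a1* between CA3-like (23.1 ± 7.14) and DG-like neurons. All other neighbours overlapped, and for *Fos*, *Fosb*, *Npas4*, *Nr4a3* and *Dusp1* no neighbouring subtypes were separate.

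Over all neurons, 4 members, *Fosb*, *Nr4a1*, *Nr4a3* and *Dusp1*, had higher levels in both Syn-Cre libraries than in both flox/flox libraries. So did 29.0% of the 20434 genes counted. None of the 4 passed edgeR's test without a block. With the replicate number, and so the sex, as a block, each of the 4 passed (adjusted p = 0.0425, 0.00798, 0.00507 and 0.0387, edgeR). The block also called more of all 20141 genes tested, 349 against 29 without it. *Nr4a3*, the nuclear receptor also called NOR-1, had 12.4, 11.5, 23.9 and 49.2 CPM, with Syn-Cre 2 far above the rest. Its log2 fold change was 1.55 ± 0.28, with an adjusted p of 0.0979 in edgeR's quasi-likelihood test over 20141 genes. Here and below, the ± of a log2 fold change is an approximate SE, the size of the change divided by the square root of F. *Nr4a1*, also called NUR77, had 50.5, 51.2, 76.0 and 102 CPM (0.75 ± 0.13, adjusted p = 0.0864, edgeR). Both flox/flox libraries were alike, and both Syn-Cre libraries lay above them. *Fosb* had 3.04, 3.53, 4.59 and 10.7 CPM (1.16 ± 0.34, adjusted p = 0.24, edgeR), with most of the difference in Syn-Cre 2. *Dusp1* had 8.31, 7.97, 11.9 and 17.97 CPM (0.81 ± 0.18, adjusted p = 0.156, edgeR).

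The other 6 members overlapped between the labels. *Junb* had 82.3, 89.7, 56.0 and 82.8 CPM (-0.37 ± 0.16, adjusted p = 0.384, edgeR), *Egr1* 44.7, 55.9, 32.7 and 51.1 (-0.32 ± 0.18, 0.526), and *Npas4* 22.7, 26.6, 14.6 and 24.1 (-0.41 ± 0.20, 0.451). For each of these, Syn-Cre 1 was the lowest library and Syn-Cre 2 lay at or near the flox/flox level. *Fos* had 11.3, 11.8, 10.6 and 20.2 CPM (0.36 ± 0.25, 0.604), *Egr4* 11.5, 11.1, 8.54 and 18.5 (0.19 ± 0.29, 0.828), and *Arc* 34.5, 24.9, 31.0 and 46.3 (0.31 ± 0.21, 0.59). For these, Syn-Cre 2 was the highest and Syn-Cre 1 lay within or below the flox/flox range.

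**Figure D2:**
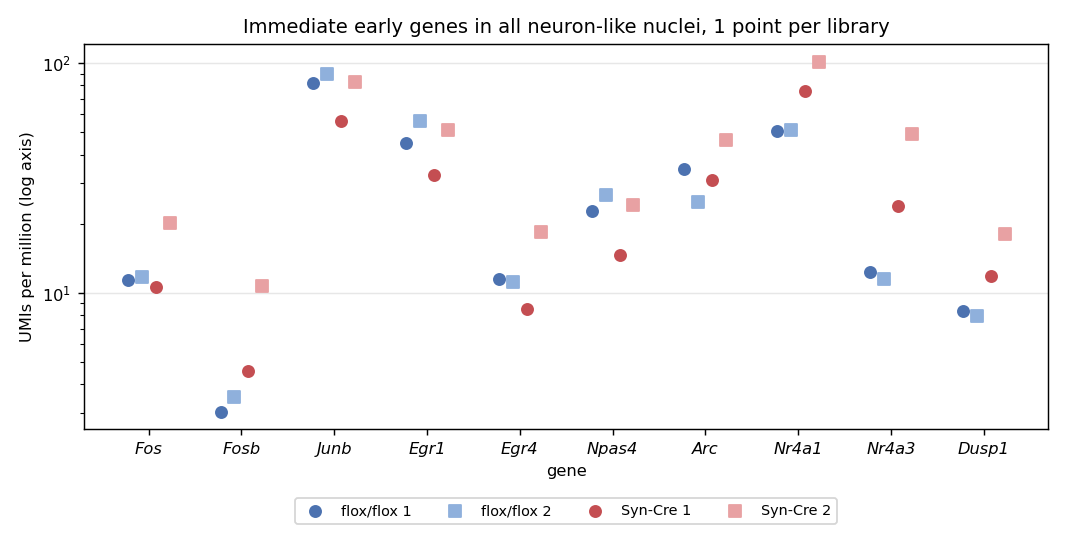
CPM (log axis) of each gene in all neuron-like nuclei, 1 point per library (circles, replicate 1, and squares, replicate 2). Both Syn-Cre points lie above both flox/flox points for *Fosb*, *Nr4a1*, *Nr4a3* and *Dusp1*, and Syn-Cre 2 is the highest of the 4 for 7 of the 10 genes. Of 20434 genes counted, 29.0% were separated in this direction and 34.1% were highest in Syn-Cre 2.

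In these neurons 0 of 10 members were called by edgeR, where 0.144% of all tested genes were. At an unadjusted p below 0.05 edgeR gave 5 members, beside 2567 of all 20141 genes tested. DESeq2 called 3 members, *Fosb*, *Nr4a1* and *Dusp1*, beside 430 of 17740 genes. The median log2 fold change of the members was 0.33, against 0.0001 over all genes tested. Both Syn-Cre libraries lay above both flox/flox libraries for 4 members, beside 29.0% of the 20434 genes counted, and below them for 0, beside 15.4%. Within the replicate numbers, Syn-Cre over flox/flox was 1.93 (replicate 1) and 4.29 (replicate 2) for *Nr4a3*, 1.51 and 1.99 for *Nr4a1*, 1.51 and 3.03 for *Fosb*, and 1.43 and 2.26 for *Dusp1*. It was below 1 in both for *Junb* (0.68 and 0.924), *Egr1* (0.732 and 0.915) and *Npas4* (0.641 and 0.906), and on different sides of 1 for *Fos* (0.936 and 1.72), *Egr4* (0.742 and 1.66) and *Arc* (0.897 and 1.86). Without Syn-Cre 2, edgeR called 1 member and the log2 fold changes of *Fos* and *Egr4* turned to -0.16 and -0.45. Without Syn-Cre 1, it called 4.

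Across the 11 subtypes, 87 of the 110 pairs of member and subtype had enough counts for the test and 11 passed it, 10 higher and 1 lower, or 28 (23 higher and 5 lower, with all 11 among them) with the replicate number as a block. With the block, the calls over all genes went from 238 to 712 in L4/5 IT-like and from 92 to 539 in L5/6 IT-like neurons. They went from 120 to 161 in L6 CT-like, from 1073 to 1449 in *Sst*-like and from 522 to 476 in *Pvalb*-like neurons. In L2/3 IT-like neurons they went from 61 to 472, in DG-like from 484 to 856 and in CA1-like from 2 to 153. In *Vip*-like neurons they went from 2 to 66, in *Lamp5*-like from 49 to 70, and in CA3-like they stayed at 6. Which pairs the block added is not given here, and the subtype calls below are without it unless it is named. *Nr4a3* rose in 5 subtypes and *Nr4a1* in 4, in cortical excitatory neurons and in *Sst*-like and *Pvalb*-like interneurons. *Fos* rose in *Sst*-like neurons and *Junb* fell in L4/5 IT-like neurons. Without the block, none of the members tested passed in L2/3 IT-like, DG-like, CA3-like, CA1-like, *Vip*-like or *Lamp5*-like neurons. Where libraries within a subtype are said to be separated by label, the share of all genes so separated was not computed. Over all neurons it was 29.0% higher and 15.4% lower of 20434 genes. Fewer nuclei of a kind and less RNA per nucleus cannot be told apart in summed counts of a library, but CPM within a subtype does not depend on the number of its nuclei.

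**Figure D3:**
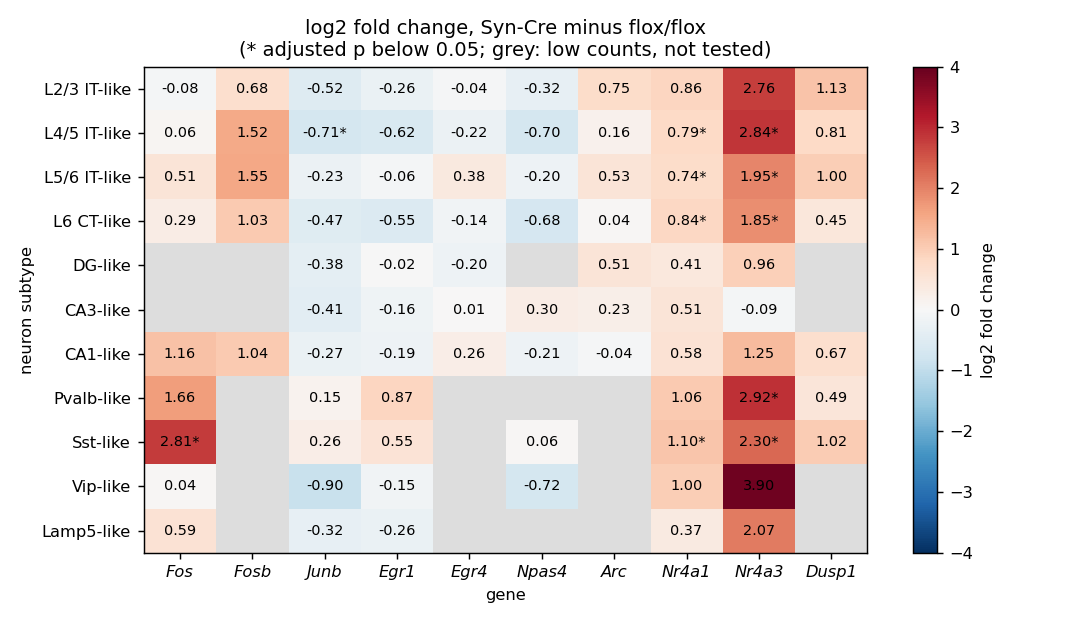
Log2 fold change of Syn-Cre against flox/flox (colour and number) for each gene (columns) and subtype (rows), with an asterisk at an adjusted p below 0.05 and grey where counts were too low to test. *Nr4a1* is positive in 11 of 11 subtypes and *Nr4a3* in 10 of 11, while *Junb* is positive in 2 of 11.

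The NR4A receptors gave 9 of the 11 calls. In L4/5 IT-like neurons *Nr4a3* had 5.67, 2.03, 22.4 and 37.4 CPM, with ratios of 3.94 within replicate 1 and 18.4 within replicate 2. Its log2 fold change was 2.84 ± 0.37 (adjusted p = 0.0096, edgeR). *Nr4a1* there had 88.7, 74.3, 131 and 161 CPM (0.79 ± 0.14, adjusted p = 0.0275). In L5/6 IT-like neurons *Nr4a3* had 7.42, 6.93, 22.1 and 36.5 CPM (1.95 ± 0.26, adjusted p = 0.0032, edgeR). *Nr4a1* had 72.1, 67.6, 107 and 136 CPM there (0.74 ± 0.15, adjusted p = 0.0351). In both subtypes the groups did not overlap, and Syn-Cre 2 was the highest library.

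In L6 CT-like neurons, which project to the thalamus, *Nr4a3* had 15.2, 6.66, 31.2 and 55.6 CPM (1.85 ± 0.31, adjusted p = 0.0119, edgeR) and *Nr4a1* 69.2, 67.0, 108 and 148 (0.84 ± 0.15, adjusted p = 0.015). In L2/3 IT-like neurons the same genes were separated by label, but did not pass. *Nr4a3* had 7.46, 2.22, 15.97 and 53.2 CPM there (2.76 ± 0.59, adjusted p = 0.104), and *Nr4a1* 59.6, 46.9, 91.2 and 105 (0.86 ± 0.15, adjusted p = 0.058), a gene that DESeq2 called in this subtype. In both subtypes Syn-Cre 2 was again the highest library for both genes.

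Among interneurons, Syn-Cre 2 was the highest library for both receptor RNAs in each of the 4 subtypes. In *Pvalb*-like neurons, the fast-spiking basket and chandelier cells, *Nr4a3* had 1.94, 2.09, 6.31 and 25.9 CPM (7, 5, 15 and 65 UMIs) and a log2 fold change of 2.92 ± 0.64 (adjusted p = 0.0202, edgeR). In *Sst*-like neurons, which target dendrites, it had 1.75, 2.60, 8.32 and 14.6 CPM (5, 5, 15 and 23 UMIs) and a change of 2.30 ± 0.50 (adjusted p = 0.00488, edgeR). With fewer than 10 UMIs in each flox/flox library, *Nr4a3* entered the test in both subtypes only through its Syn-Cre counts. It was not tested there when a filter asked for 10 UMIs in every library. *Nr4a1* in *Sst*-like neurons had 17.5, 18.7, 21.6 and 62.3 CPM (1.10 ± 0.33, adjusted p = 0.0386), so that Syn-Cre 1 was close to the flox/flox libraries. In *Vip*-like neurons *Nr4a3* had 0.924, 1.44, 7.34 and 32.1 CPM, on only 2 and 2 UMIs in the flox/flox libraries, and did not pass (adjusted p = 0.388). In *Lamp5*-like neurons it had 4.73, 12.03, 13.7 and 55.8 CPM (adjusted p = 0.184). *Nr4a1* had 12.2, 20.1, 19.8 and 48.6 CPM in *Pvalb*-like, 33.7, 34.5, 49.5 and 91.9 in *Vip*-like and 33.1, 51.8, 43.9 and 70.2 in *Lamp5*-like neurons, none past the threshold, and only in *Vip*-like neurons were these separated by label.

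Without the block, no member passed in the hippocampal subtypes, which were not tested against each other. In CA3-like neurons, where its flox/flox levels were highest, *Nr4a3* had 49.8, 64.6, 46.0 and 66.1 CPM, with a log2 fold change of -0.09 ± 0.19 (adjusted p = 0.933, edgeR). The labels overlapped there, and this was the only subtype in which they did for this gene. In CA1-like neurons it had 23.3, 31.7, 43.2 and 91.2 CPM (1.25 ± 0.26, adjusted p = 0.17), and in DG-like neurons 3.02, 4.53, 5.82 and 9.18 (0.96 ± 0.36, adjusted p = 0.19). *Nr4a1* had 19.99, 16.8, 22.4 and 33.3 CPM in CA3-like, 34.9, 50.7, 51.7 and 79.6 in CA1-like and 3.45, 7.93, 6.09 and 8.89 in DG-like neurons, none past the threshold.

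**Figure D4:**
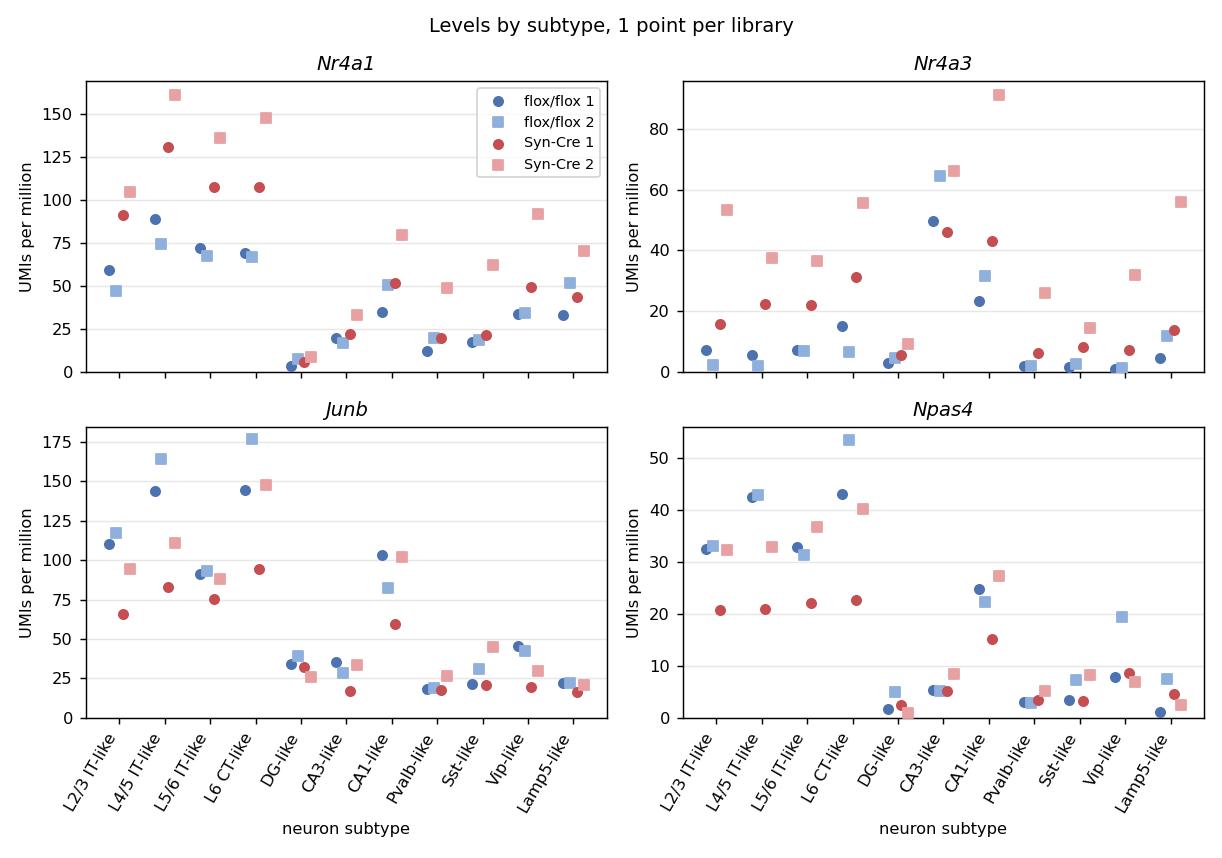
CPM of *Nr4a1*, *Nr4a3*, *Junb* and *Npas4* in each subtype, 1 point per library, on axes from 0. *Nr4a3* is separated by label in 10 of 11 subtypes and not in CA3-like neurons, and both Syn-Cre points of *Junb* lie below both flox/flox points in L4/5 IT-like neurons (83.2 and 111 against 144 and 164). The share of all genes separated within a subtype was not computed.

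Among the AP-1 genes, *Junb* fell in 1 subtype and *Fos* rose in another. In L4/5 IT-like neurons *Junb* had 144, 164, 83.2 and 111 CPM, a log2 fold change of -0.71 ± 0.14 (adjusted p = 0.0361, edgeR) and ratios of 0.578 and 0.677 within the replicate numbers. In L2/3 IT-like neurons it had 111, 117, 65.8 and 94.6 CPM (-0.52 ± 0.15, adjusted p = 0.203) and in L6 CT-like neurons 144, 177, 94.5 and 148, where the labels overlapped. Both Syn-Cre libraries were lower than both flox/flox libraries in 6 of 11 subtypes for *Junb*, and higher in 0. How many of all genes were lower in this way was counted only over all neurons (15.4%), not within subtypes. *Fos* in *Sst*-like neurons had 1.75, 1.56, 6.65 and 19.7 CPM on 5, 3, 12 and 31 UMIs, a log2 fold change of 2.81 ± 0.58 (adjusted p = 0.00302, edgeR). With so few flox/flox UMIs, *Fos* entered the test in this subtype only through its Syn-Cre counts. *Fosb* had 3.71, 4.63, 8.08 and 16.2 CPM in L4/5 IT-like neurons and missed the threshold (1.52 ± 0.32, adjusted p = 0.051), and its log2 fold change was 0.68 to 1.55 in the 5 subtypes tested.

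*Egr1*, *Egr4* and *Npas4* gave no call in any subtype without the block. In L4/5 IT-like neurons *Egr1*, a factor that binds GC-rich promoters, had 97.1, 131, 64.2 and 88.0 CPM (-0.62 ± 0.16, adjusted p = 0.105, edgeR) and *Npas4* 42.6, 42.9, 21.0 and 32.9 (-0.70 ± 0.18, adjusted p = 0.0987), with both Syn-Cre libraries below both flox/flox libraries. In L6 CT-like neurons *Npas4* had 43.1, 53.5, 22.7 and 40.2 CPM (-0.68 ± 0.20, adjusted p = 0.166). *Npas4* was separated downward in 3 subtypes and upward in 1, *Pvalb*-like neurons (3.04, 2.93, 3.37 and 5.18 CPM on 11, 7, 8 and 13 UMIs, too few to test). The log2 fold change was positive in 2 of 11 subtypes for *Egr1*, 2 of 8 for *Npas4* and 3 of 7 for *Egr4*.

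*Arc* and *Dusp1* gave no call without the block either, and their values lay mostly above 0. *Dusp1* had 8.32, 5.21, 12.8 and 17.6 CPM in L2/3 IT-like neurons (1.13 ± 0.26, adjusted p = 0.117, edgeR) and 16.6, 12.3, 22.7 and 30.0 in L4/5 IT-like neurons (0.81 ± 0.20, adjusted p = 0.091). Its log2 fold change was 0.45 to 1.13 in the 7 subtypes tested. *Arc* had 27.4, 17.8, 30.5 and 47.0 CPM in L2/3 IT-like neurons (0.75 ± 0.24, adjusted p = 0.252) and 94.5, 71.4, 83.0 and 96.2 in L6 CT-like neurons (0.04 ± 0.16, adjusted p = 0.957), where the labels overlapped. Its change was positive in 6 of 7 subtypes.

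The calls of members without the block stand beside these shares of all tested genes that edgeR called. They were 3 of 10 in L4/5 IT-like neurons beside 1.64%, 2 of 10 in L5/6 IT-like beside 0.698%, 2 of 10 in L6 CT-like beside 0.884%, 1 of 6 tested in *Pvalb*-like beside 4.24% and 3 of 7 tested in *Sst*-like neurons beside 9.1%. None was called of 10 in L2/3 IT-like neurons beside 0.399%, of 6 in DG-like beside 3.7%, of 7 in CA3-like beside 0.0492%, of 10 in CA1-like beside 0.0161%, of 6 in *Vip*-like beside 0.0179% and of 5 in *Lamp5*-like beside 0.468%. At an unadjusted p below 0.05 edgeR gave 5, 2, 0, 3, 3 and 1 in these 6 subtypes, and DESeq2 called 1 in L2/3 IT-like and 0 in the other 5. Over all genes, edgeR gave 1950 of 15275, 2163 of 13096, 1004 of 12195, 1067 of 12402, 725 of 11149 and 1176 of 10476 unadjusted. DESeq2 called 158 of 12810, 270 of 11424, 15 of 5679, 4 of 21836, 3 of 20654 and 41 of 2184 genes there. In the 5 subtypes with calls DESeq2 called 3, 1, 1, 1 and 1. Over all genes DESeq2 called 227 of 15189, 34 of 13285, 77 of 12891, 311 of 12352 and 462 of 12098 there. It did not call *Nr4a1* in L5/6 IT-like (adjusted p = 0.11), *Nr4a3* in L6 CT-like (0.364), or *Nr4a3* (0.139) and *Nr4a1* (0.289) in *Sst*-like neurons. The median log2 fold change over the members tested was 0.11 to 0.52 in the 4 cortical excitatory subtypes, 0.20 in DG-like, 0.02 in CA3-like, 0.42 in CA1-like, 0.97 in *Pvalb*-like, 1.02 in *Sst*-like, -0.05 in *Vip*-like and 0.37 in *Lamp5*-like neurons. The median over all genes tested was -0.0026 to 0.0085 in the same subtypes. *Nr4a3* in *Pvalb*-like neurons, and *Nr4a3* and *Fos* in *Sst*-like neurons, passed the count filter only through the Syn-Cre libraries. The calls and medians of these interneurons include them, so they are not independent of that filter.

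Over all neurons, 7 of the 10 members had their highest CPM in Syn-Cre 2, beside 34.1% of 20434 genes. It was also the highest library in 84 of the 110 pairs of member and subtype. These pairs include those with too few UMIs to test, and the share of all genes within subtypes was not computed. When 1 library is left out, its label has 1 mouse, which is assumed to vary like the mice of the other label. The number of all genes called also rose or fell with the library left out. Without Syn-Cre 2, edgeR called 8 pairs, 3 higher and 5 lower, of which 2, *Nr4a3* and *Junb* in L4/5 IT-like neurons, were among the 11. The other 9 kept their direction with log2 fold changes of 0.18 (*Nr4a1*, *Sst*-like), 0.60 (*Nr4a1*, L5/6 IT-like), 0.63 (*Nr4a1*, L6 CT-like), 0.66 (*Nr4a1*, L4/5 IT-like), 1.43 (*Nr4a3*, L6 CT-like), 1.56 (*Nr4a3*, *Pvalb*-like), 1.59 (*Nr4a3*, L5/6 IT-like), 1.88 (*Nr4a3*, *Sst*-like) and 1.88 (*Fos*, *Sst*-like). Without Syn-Cre 1, 29 pairs were called, all higher, and *Junb* in L4/5 IT-like neurons (-0.56) was not. Without flox/flox 1, 24 were called and without flox/flox 2, 18, and *Nr4a3* in *Pvalb*-like neurons was lost without either (2.89 and 2.94). *Nr4a3* in L4/5 IT-like neurons was called in 14 of 14 alternatives, and each of the other 10 pairs was lost in 2 to 5 of 12 to 14, with its direction kept. *Junb* in L4/5 IT-like neurons fell short with thinned counts and with each nucleus counted at most once per gene (-0.22, adjusted p = 0.298, edgeR), and *Fos* in *Sst*-like neurons did so with doublets kept (1.72). With 10 UMIs required in every library, 9 pairs were called, 8 of them among the 11. *Nr4a3* in *Pvalb*-like and *Sst*-like neurons and *Fos* in *Sst*-like neurons were then not tested, which is not counted as a loss.

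Cells that are not neurons were also higher in Syn-Cre 2. The summed level of the 10 members was 281, 294, 270 and 423 CPM in neurons, 73.3, 55.9, 82.1 and 212 in astrocyte-like, 55.7, 62.1, 52.3 and 96.2 in oligodendrocyte-like, 171, 144, 159 and 189 in microglia-like and 115, 71.7, 155 and 465 in endothelial-like nuclei. The cluster named endothelial-like held 6 markers of vascular fibroblasts and pericytes beside 6 of endothelium, had 36 nuclei in flox/flox 2, and 39.1% of its nuclei kept the name without integration. Syn-Cre 2 was highest in all of these, and only in oligodendrocyte precursor-like nuclei (59.8, 59.0, 109 and 97.5) was Syn-Cre 1 higher. Heat shock genes, used as a list for handling, summed to 83.7, 86.7, 114 and 117 CPM in neurons. Both Syn-Cre libraries were alike and lay above both flox/flox libraries. Summed markers of oligodendrocytes, their precursors, astrocytes and microglia in neurons ranged over 99.5 to 132, 164 to 195, 284 to 322 and 57.5 to 74.9 CPM, and those of choroid plexus over 86.02 to 138. Endothelial markers (3.20, 2.83, 5.08 and 4.70) and pericyte markers (6.85, 6.66, 11.9 and 6.94) were higher in both Syn-Cre libraries. Summed over all neurons, none of these lists had a marker at 0 in a library. Within subtypes, 6 of 6 pericyte markers were at 0 in a library in *Pvalb*-like and in *Sst*-like neurons, and 4 of 6 in L4/5 IT-like neurons. Of the endothelial markers, 5 of 6 were at 0 in a library in *Sst*-like neurons. The part of these genes in the results was not tested.

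In non-neuronal classes 21 pairs were tested and 1 passed. *Egr1* in oligodendrocyte precursor-like nuclei had 9.33, 9.74, 30.5 and 17.4 CPM on 22, 17, 35 and 18 UMIs (log2 fold change 1.32 ± 0.35, adjusted p = 0.0101, edgeR), and it was not called without flox/flox 1 or without Syn-Cre 1, nor by DESeq2. This was 1 of 4 members tested, where 8.67% of genes were called. None was called of 5 in astrocyte-like (1.04% of genes), 5 in oligodendrocyte-like (0.881%), 4 in microglia-like (0.0841%) and 3 in endothelial-like nuclei (0.0%), and edgeR gave 1, 0, 1 and 1 of them at an unadjusted p below 0.05 and DESeq2 called 0. Over all genes, in this order, edgeR gave 1525 of 11789, 1259 of 11464, 894 of 10698 and 462 of 8388 unadjusted. DESeq2 called 83 of 10984, 114 of 12826, 13 of 7224 and 2 of 18812 genes. *Nr4a1* had 3.93, 3.99, 9.48 and 15.9 CPM in astrocyte-like nuclei (1.56 ± 0.53, adjusted p = 0.222). *Fosb* had 0, 0, 2 and 6 UMIs there, too few to test.

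**Figure D5:**
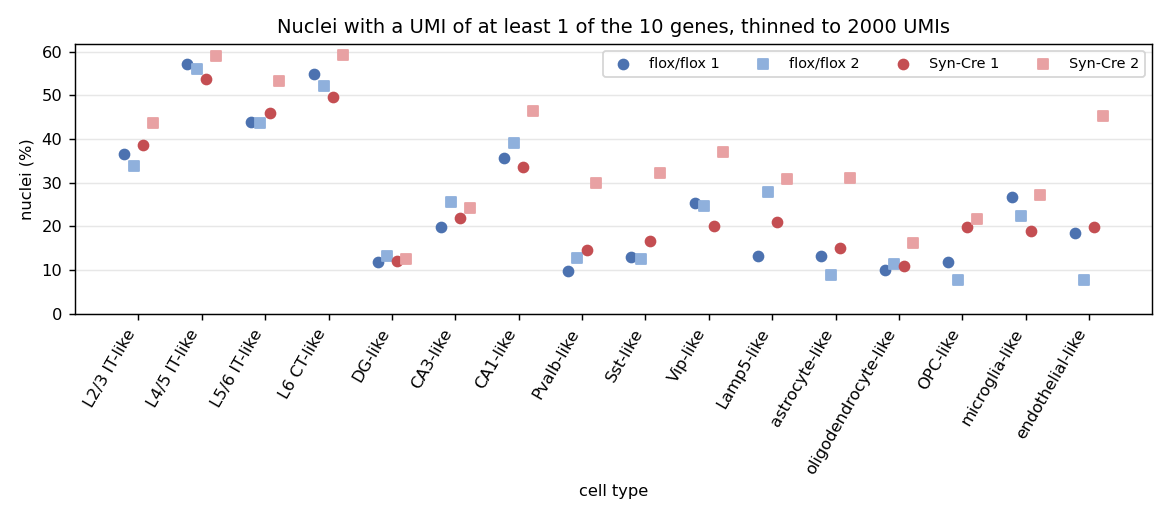
Share of nuclei (%) with a UMI of at least 1 of the 10 genes after each nucleus was thinned to 2000 UMIs, for 11 neuron subtypes and 5 other classes, 1 point per library. Syn-Cre 2 lies above the others in *Pvalb*-like (29.9%), *Sst*-like (32.2%) and astrocyte-like nuclei (31.1%), where the other libraries lie at 8.90% to 16.8%.

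Whether the labels differed more in some neurons than in others was tested as an interaction with library as a block. None of the 10 members passed for interneurons against excitatory neurons (1.7% of genes did), nor for hippocampal against cortical excitatory neurons (1.1%). At an unadjusted p below 0.05 edgeR gave 6 and 2 members, and DESeq2 called 0 in both. Over all genes edgeR gave 2567 of 18612 and 2386 of 17960 unadjusted, and DESeq2 called 132 of 13248 and 90 of 12542. *Nr4a3* came nearest, with a log2 difference of -1.59 ± 0.34 between hippocampal and cortical excitatory neurons (adjusted p = 0.0525, edgeR), and it was called in 5 alternatives, without flox/flox 1, without flox/flox 2, with thinned counts, with each nucleus counted at most once per gene and with edgeR's earlier test. For interneurons against excitatory neurons the differences were 1.79 ± 0.58 for *Fosb* (adjusted p = 0.18), 1.24 ± 0.35 for *Egr4* (0.116), 1.02 ± 0.35 for *Nr4a3* (0.208) and 0.70 ± 0.21 for *Fos* (0.156). Both tests pool subtypes, and no subtype with a call was tested against one without. The calls in single subtypes above are thus not shown to differ from those of subtypes without a call.

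The share of nuclei with a UMI and the number of UMIs in those nuclei both moved with the level of *Nr4a3*. Nuclei were thinned to 2000 UMIs to make depths equal (17 to 52 neuron-like nuclei per library were shallower and left out). The share with a *Nr4a3* UMI was then 2.06%, 2.24%, 4.12% and 8.03% of neurons, or 10.8%, 9.47%, 17.9% and 27.3% of neurons without thinning. In thinned oligodendrocyte-like nuclei, given for comparison, it was 0.42%, 0.45%, 0.00% and 0.34%. Where the UMIs of oligodendrocyte-like nuclei come from was not tested. Neurons with a UMI held 1.44, 1.40, 1.54 and 2.11 on average, unthinned. For *Nr4a1* the share was 8.43%, 9.23%, 11.4% and 16.7% (oligodendrocyte-like 1.14%, 0.67%, 1.77% and 1.03%), or 35.5%, 36.2%, 42.3% and 49.9% unthinned, with 1.78, 1.64, 2.08 and 2.38 UMIs in those nuclei. For *Junb* it was 13.04%, 14.7%, 9.64% and 13.1% (oligodendrocyte-like 2.22%, 3.36%, 2.84% and 5.84%), or 37.4%, 37.5%, 31.2% and 41.1% unthinned, and *Junb* nuclei held 2.76, 2.77, 2.08 and 2.36 UMIs, so that in Syn-Cre 2 fewer UMIs per positive nucleus went with a share like that of the flox/flox libraries. Median depths were 10852, 10068, 10025 and 10123 UMIs in neurons and 3269, 2594, 2730 and 2567 in oligodendrocyte-like nuclei.

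Neurons with UMIs of several members at the same time were most frequent in Syn-Cre 2. After thinning, 3.07%, 3.95%, 2.91% and 6.76% of neuron-like nuclei had a UMI of 3 or more members, 3.51 ± 0.62% (SD, n = 2) with the label flox/flox and 4.83 ± 2.72% (SD, n = 2) with Syn-Cre, and 0.0% of oligodendrocyte-like nuclei in each library. The difference of 1.32 percentage points had a two-sided exact permutation p of 1.0 (the smallest possible is 0.3333) and turned to -0.601 without Syn-Cre 2. In L6 CT-like neurons the shares were 8.03%, 8.94%, 6.54% and 15.5%, and in L4/5 IT-like neurons 7.93%, 8.54%, 5.73% and 11.04%, with Syn-Cre 1 lowest and Syn-Cre 2 highest in both. In *Sst*-like neurons 13.01%, 12.6%, 16.8% and 32.2% had a UMI of at least 1 member. Over 8511 thinned cortical excitatory nuclei, many pairs of members were found in the same nuclei. The share with a UMI of a member was higher beside a UMI of the other in all 4 libraries for 34 of 45 pairs. Among the other pairs, it was higher in 1 library for *Fosb* with *Nr4a3* and in 2 for *Fosb* with *Nr4a1*. Both rest on only 21, 16, 24 and 47 nuclei with *Fosb*. Of these nuclei 0.0%, 0.0%, 4.17% and 23.4% had *Nr4a3*, against 1.53%, 0.803%, 4.18% and 8.14% of those without *Fosb*. Pairs of genes outside the set were not counted, and the cortical subtypes pooled here differ in their levels. For *Fos* and *Junb*, 51.6%, 47.9%, 28.3% and 35.0% of nuclei with *Fos* had *Junb*, against 18.7%, 20.5%, 12.7% and 16.8% of those without.

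Other genes of the early response were read from lists. For these and the lists below, calls are pooled over subtypes. The share of all tested genes called in a subtype ran from 0.0161% in CA1-like to 9.1% in *Sst*-like neurons. Of 8 other AP-1 and ATF genes, 0 passed over all neurons, and over the 11 subtypes 5 of 36 tests were called higher and 0 lower, all of *Fosl2*, a FOS relative. In L4/5 IT-like neurons *Fosl2* had 3.05, 3.91, 11.5 and 24.1 CPM (2.33 ± 0.34, adjusted p = 0.013, edgeR). Over all neurons it had 5.92, 7.24, 11.5 and 22.0 CPM and did not pass (1.29 ± 0.27, adjusted p = 0.13), and neither did *Atf3*, a stress-induced factor, at 0.0469, 0.116, 0.87 and 0.349 CPM (2.91 ± 0.67, adjusted p = 0.16). Of 14 other EGR, NR4A and rapid genes, 0 passed over all neurons and 10 of 77 subtype tests were called, all higher, from *Egr2*, *Egr3*, *Klf10* and *Nr4a2*. *Egr3* had 10.3, 8.23, 23.2 and 40.9 CPM over all neurons (1.72 ± 0.25, adjusted p = 0.0702) and 14.7, 7.24, 43.0 and 67.5 in L4/5 IT-like neurons (2.25 ± 0.30, adjusted p = 0.0096). *Egr2* had a change of 1.90 ± 0.45 over all neurons (adjusted p = 0.169). *Nr4a2*, the remaining NR4A receptor, had 4.58, 2.75, 11.5 and 24.97 CPM in L4/5 IT-like neurons (2.24 ± 0.37, adjusted p = 0.0194). Where a gene of a list is described in a subtype, it was chosen after its values were seen.

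Among 20 activity effectors, genes whose products act at synapses or are secreted, 1 passed over all neurons and 40 of 173 subtype tests were called higher and 1 lower. *Pcsk1*, a protease that matures neuropeptides, rose over all neurons (28.3, 32.2, 57.6 and 64.4 CPM, 0.96 ± 0.09, adjusted p = 0.0273, edgeR), with both Syn-Cre libraries nearly alike. *Bdnf*, a growth factor for neurons, rose in L4/5 IT-like neurons (27.2, 17.96, 61.6 and 81.5 CPM, 1.60 ± 0.21, adjusted p = 0.0096). *Homer1*, a scaffold of the postsynapse with an activity-induced short form, rose there too (369, 262, 734 and 727 CPM, 1.16 ± 0.18, adjusted p = 0.0154). *Per1*, a clock gene with CREB sites, rose in *Sst*-like neurons (10.2, 11.97, 44.9 and 65.5 CPM, 2.23 ± 0.25, adjusted p = 4.59e-06). The 1 lower call was *Rgs2*, a brake on G protein signalling, in *Sst*-like neurons (7.71, 9.37, 2.22 and 2.54 CPM, -1.89 ± 0.51, adjusted p = 0.0229).

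The remaining lists gave few calls. Of 18 upstream kinases, channels and factors, such as *Creb1*, *Srf* and *Mef2c*, 0 passed over all neurons and 1 of 193 subtype tests was called, lower, *Camk4* in *Sst*-like neurons (70.5, 68.7, 38.8 and 58.5 CPM, -0.61 ± 0.19, adjusted p = 0.0472, edgeR). The 2 with the largest changes over all neurons were *Mapk3*, which encodes ERK1 (-0.42 ± 0.14, adjusted p = 0.267), and *Elk4*, a partner of serum response factor (0.24 ± 0.11, adjusted p = 0.395). Of 7 feedback regulators, 2 of 55 subtype tests were called, both higher, *Dusp5* in L4/5 IT-like and *Spry2* in *Pvalb*-like neurons, and over all neurons *Dusp5* (1.08 ± 0.20, adjusted p = 0.0979) and *Spry4* (0.95 ± 0.23, adjusted p = 0.17) did not pass. Of 6 heat shock genes, 2 of 31 subtype tests were called, both *Hspa8*, higher in L4/5 IT-like and L5/6 IT-like neurons, and over all neurons *Hspa8* (0.44 ± 0.09, adjusted p = 0.122) and *Hsph1* (0.35 ± 0.12, adjusted p = 0.311) did not pass. Median log2 fold changes over the subtype tests were 0.36 for the AP-1 and ATF list, 0.54 for the EGR, NR4A and rapid list, 0.55 for effectors, -0.07 for upstream genes, 0.57 for feedback regulators and 0.30 for heat shock genes.

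The genes most like the members over the 44 pseudobulks of subtype and library were found by the correlation of log2(CPM + 1) with the mean of the standardised members, among 11865 genes with a mean of at least 5 CPM. They were *Homer1* (Pearson r = 0.879), *Gm15997* (0.878), *Coq10b* (0.875), *Tyro3* (0.865), *9130024F11Rik* (0.851), *R3hdm2* (0.850), *Ext1* (0.848) and *Gm43507* (0.847). *Homer1* is an activity effector in the lists above, and the others are in none of them. The points share mice and depth, so the values rank genes and carry no test.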

How the data were processed

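Nuclei of 4 mice were sequenced with the 10x Genomics 3′ version 3 chemistry. The authors ran Cell Ranger 6.1.0 against GRCm38, as the submitters' processing notes name them, and deposited raw UMI counts per gene and nucleus, not normalized. Nuclei with over 600 genes and under 5% mitochondrial UMIs were kept, and those with the highest Scrublet scores (scanpy 1.11.5) were left out as doublets at a rate proportional to the nuclei of the library (5.893% to 10.079%). Seurat 5.3.0 was used to integrate the 4 libraries over 2000 variable features and to cluster all nuclei (17 dimensions, resolution 0.2) and then the neurons (resolution 0.4). Clusters were named from marker lists by a rule set after the clusters were seen, with at least 3 markers needed. The authors' cluster names were not used here.

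Counts were summed per class and library and compared with edgeR 4.0.16 (TMM, filterByExpr, two-sided quasi-likelihood test), with Benjamini-Hochberg adjustment over all genes tested and a threshold of 0.05. Replicates are mice, 2 per label, and the prior count of the fold changes was 0.125. The ± of a log2 fold change is its size divided by the square root of the F statistic. It is an approximate SE that edgeR itself does not give, and it is not reliable where the change is small. CPM were computed from the UMI total of the summed nuclei, not scaled by TMM. Interactions had library as a block. The scripts were tested on simulated data. Alternatives were DESeq2 1.42.0, its size factors in edgeR, other filters on low counts, thinning, doublets kept, names without integration, each nucleus counted at most once per gene, a replicate block and each library left out. Added after seeing the data were edgeR's earlier test, the unnamed neuron cluster included, and thinning for the interactions.

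The members and lists were chosen with earlier results of these data known, so no list is independent support. Of each list, up to 4 genes past the threshold over all neurons with at least 20 UMIs are named, or the 2 with the largest changes if none passes, and the 8 genes most like the members. Of the features, 32235 were found in GENCODE vM21. The UMI totals limit precision, and shares of nuclei cover counting error only.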

Additional observations from a re-analysis of the deposited data

Results flagged for a closer look

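No member passed the test of the difference between kinds of neurons, with *Nr4a3* next to the threshold, and the genes of the other lists that passed are given here. These calls are from the main setting, and how each holds in the alternatives is not given here. Over all genes, fewer passed for interneurons against excitatory neurons when any library was left out. For hippocampal against cortical excitatory neurons, far fewer passed when either Syn-Cre library was left out, and more when either flox/flox library was. Between interneurons and excitatory neurons, the label difference (Syn-Cre against flox/flox, log2 scale) was higher for *Plk2*, a kinase of the synapse, by 0.73 (adjusted p = 0.0252, edgeR). It was lower in interneurons for *Spred1*, an inhibitor of RAS signalling, at -0.63 (adjusted p = 0.00777), for *Homer1* at -0.87 (adjusted p = 0.016), and for *Klf10* at -1.54 (adjusted p = 0.0252).

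Between hippocampal and cortical excitatory neurons, the difference was lower in the hippocampus for 7 genes of the lists. These were *Egr3* at -1.44 (adjusted p = 0.0115, edgeR), *Fosl2* at -1.40 (adjusted p = 0.0171), *Nr4a2* at -1.27 (adjusted p = 0.0227), *Hspa8* at -0.54 (adjusted p = 0.0236), *Ptgs2*, which encodes the enzyme COX-2, at -1.48 (adjusted p = 0.0254), *Homer1* at -0.88 (adjusted p = 0.0258) and *Scg2*, a granin of secretory vesicles, at -0.84 (adjusted p = 0.028). *Nr4a3* had a difference of the same sign that missed the threshold (-1.59, adjusted p = 0.0525).

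Among the members, the libraries of the labels were fully separated in opposite directions for *Npas4*, with both Syn-Cre libraries higher in 1 subtype (*Pvalb*-like neurons) and lower in 3 (L2/3 IT-like, L4/5 IT-like and L6 CT-like neurons). In *Pvalb*-like neurons this rested on 11, 7, 8 and 13 UMIs (3.04, 2.93, 3.37 and 5.18 CPM), too few to test. The difference between subtypes was not tested, and the share of all genes so separated within a subtype was not computed.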

How the results depend on the processing

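Over all neurons, 0 members were called in the main test, 3 with DESeq2, 1 with each nucleus counted at most once per gene, 4 with a replicate block, and 0 to 4 with a library left out. In the subtypes, 11 pairs became 4 without a filter on low counts, 28 (23 higher, 5 lower) with a replicate block, and 8 to 29 with a library left out. The other settings gave 8 to 13. In non-neuronal classes, 1 call became 0 with DESeq2 and 0 without a filter, and 0 to 1 with a library left out. For hippocampal against cortical excitatory neurons, 0 calls became 1 with thinned counts, 1 with each nucleus counted at most once per gene and 1 with edgeR's earlier test, and 0 to 1 with a library left out. For interneurons against excitatory neurons the count was 0 throughout. The difference in nuclei with 3 or more members (1.32 percentage points) was 6.38 without thinning and -0.601 to 3.25 with a library left out. Without Syn-Cre 2, *Fos* (-0.16, range over left-out libraries -0.16 to 0.72) and *Egr4* (-0.45, range -0.45 to 0.62) reversed over all neurons. The cause was not tested. The deviations of same-numbered libraries had a correlation of 0.0855 over 20135 genes, and the only thing known to be shared by the mice of a replicate number is the sex read from the data. Over all neurons edgeR called 29 genes, DESeq2 430, the block 349 and edgeR without a filter 2. In *Sst*-like neurons edgeR called 1073, DESeq2 462 and the block 1449. Depth limits the interneurons and the CA3-like neurons. The lowest count of a member in a library was 0 UMIs in *Vip*-like, *Lamp5*-like and CA3-like neurons. It was 1 UMI in *Pvalb*-like and *Sst*-like neurons. Depth also limits the DG-like neurons, where 6 of 10 members could be tested.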
